A study of Mus musculus with 2 samples.

Results

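Short noncoding RNAs were examined in total RNA-seq of 2 kinds of mouse B cell progenitor, called pre-pro-B and pro-B. The members were all RefSeq transcripts with a noncoding (NR) accession, a length below 200 bases and a locus on one of the autosomes. The rule did not use expression, and it gave 720 of the 30485 transcripts in the table, with 663 different accessions, since 13 accessions have several rows. By symbol, 571 were microRNA precursors (Mir), 67 were C/D box small nucleolar RNAs (Snord), 34 were H/ACA box small nucleolar RNAs (Snora), 7 were small Cajal body RNAs (Scarna), 2 were small nuclear RNAs (Rnu) and 39 had another name or none. At the limit of the rule, Snora74a (198 bases) was the last member inside, with 608 FPKM (a read count divided by transcript length and by library size) in pre-pro-B and 509 FPKM in pro-B cells. The first transcript outside, Defa-ps13, was listed at 0 in both.

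The pre-pro-B cells were Ebf1 -/- cells of C57BL/6 background from female fetal liver, arrested before B lineage commitment by loss of the transcription factor Ebf1, and were grown with Il-7 at 5 ng/mL, Scf at 10 ng/mL and Flt3l at 10 ng/mL. The pro-B cells were Rag2 -/- cells of the same background from male adult bone marrow, which cannot rearrange their immunoglobulin genes, and were grown with Il-7 at 5 ng/mL alone. Both were kept on OP-9 stromal cells. There was 1 library per cell type, so cell type, genotype, sex, age, tissue of origin and cytokines cannot be told apart, and no difference between the libraries has a replicate check or a p-value. The RNA had a RIN of 9.9 and had passed a column that depletes RNAs under 200 nt, followed by removal of ribosomal RNA and strand-specific sequencing of about 90000000 single-end reads of up to 97 bases per library. The step against small RNAs therefore acted on the size class described here, in both libraries.

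MicroRNAs are cut by Drosha and Dicer from hairpins that lie in longer primary transcripts, and the mature strand recognises its targets through the seed near its first base. C/D box small nucleolar RNAs guide ribose methylation of ribosomal RNA, H/ACA box small nucleolar RNAs guide pseudouridylation, and most of both kinds are released from introns of host genes, many of which encode ribosomal proteins or translation factors. Small Cajal body RNAs guide the same modifications on spliceosomal RNAs, and Rnu11 and Rnu12 belong to the minor spliceosome. MicroRNAs of the Mir17 cluster, Mir150 and the Mir181 family are known for their part in early B lymphopoiesis.

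Sequences could be matched for 19 of the 23 Mir members that were above 0 in a library and for 39 of the 47 small nucleolar, Cajal body and nuclear RNAs above 0. The following RNAs carry the results below. The microRNA strands are from RefSeq (GRCm38.p6), 5′ to 3′, with the seed (bases 2 to 8) in capitals. Mir142 and Mir3064 had the highest levels that were alike in both libraries, Mir1931 is among the members furthest apart, and the others belong to families in which most members were at 0.
miR-142a-5p: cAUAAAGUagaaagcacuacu
miR-142a-3p: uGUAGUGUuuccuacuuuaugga
miR-3064-5p: uCUGGCUGuuguggugugcaaa
miR-1931: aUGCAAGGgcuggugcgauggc
miR-15a-5p: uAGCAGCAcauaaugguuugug
miR-16-5p: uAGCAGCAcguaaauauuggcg
miR-106b-5p: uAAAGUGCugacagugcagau
miR-181c-5p: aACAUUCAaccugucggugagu

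The small nucleolar and nuclear RNAs were read from NCBIM37 (mm9), on the strand of the RNA, at the position of the gene of that name in the GENCODE annotation or, for Rnu11 and Rnu12, at the transcript's own locus. The GENCODE interval can be longer than the RefSeq transcript that was quantified (178 against 164 bases for Snora81 and 130 against 118 for Snora65). The gap was larger for some members not printed here, with 93 against 60 bases for Snord91a and 325 against 71 for Scarna10. Capitals mark TGATGA lying wholly within the first 15 bases and CTGA wholly within the last 15 of a Snord, letters of the C and D box, and the ACA that stands 3 bases before the end of a Snora. Snora81 is shown as the member with the highest level, Snord15a and Snord15b as the pair of one host gene (Rps3) with high levels in both libraries, Snora65 for its level against that of its host gene, Rnu12 and Rnu11 as the small nuclear RNAs, and the last 4 as neighbours within one host gene (Rpl13a) that differed in the libraries they were seen in.
Snora81, chr16:23110829-23111006, plus strand: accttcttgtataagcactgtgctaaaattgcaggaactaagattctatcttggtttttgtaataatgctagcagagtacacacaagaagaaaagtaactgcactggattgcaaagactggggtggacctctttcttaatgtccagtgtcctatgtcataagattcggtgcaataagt
Snord15a, chr7:106631295-106631442, minus strand: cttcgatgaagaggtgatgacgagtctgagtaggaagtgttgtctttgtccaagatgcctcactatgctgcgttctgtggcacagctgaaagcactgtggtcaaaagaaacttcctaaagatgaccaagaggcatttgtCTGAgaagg
Snord15b, chr7:106628073-106628217, minus strand: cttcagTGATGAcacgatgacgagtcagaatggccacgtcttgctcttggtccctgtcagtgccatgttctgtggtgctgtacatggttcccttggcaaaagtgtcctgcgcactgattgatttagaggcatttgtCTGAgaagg
Snora65, chr2:32818811-32818940, plus strand: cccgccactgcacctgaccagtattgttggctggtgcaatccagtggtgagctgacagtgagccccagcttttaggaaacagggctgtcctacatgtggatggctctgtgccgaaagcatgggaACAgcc
Rnu12, chr15:82980075-82980224, plus strand: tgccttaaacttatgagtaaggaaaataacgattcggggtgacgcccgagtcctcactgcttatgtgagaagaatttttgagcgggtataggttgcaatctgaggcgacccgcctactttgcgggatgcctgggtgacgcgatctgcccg
Rnu11, chr4:131825994-131826101, minus strand: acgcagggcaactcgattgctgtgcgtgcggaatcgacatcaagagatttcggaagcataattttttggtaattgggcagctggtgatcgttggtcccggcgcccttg
Snord32a, chr7:52382752-52382834, minus strand: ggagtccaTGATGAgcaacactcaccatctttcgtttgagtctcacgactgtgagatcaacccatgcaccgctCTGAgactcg
Snord33, chr7:52382234-52382317, minus strand: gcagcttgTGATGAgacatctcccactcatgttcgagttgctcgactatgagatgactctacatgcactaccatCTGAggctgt
Snord34, chr7:52381971-52382040, minus strand: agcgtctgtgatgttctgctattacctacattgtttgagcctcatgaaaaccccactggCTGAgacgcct
Snord35a, chr7:52381716-52381805, minus strand: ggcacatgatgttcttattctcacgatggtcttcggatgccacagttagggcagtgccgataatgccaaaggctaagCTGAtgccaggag

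Before the members, the libraries were checked on their labels. The early markers Flt3, Kit and Cd34 had 107 to 534 FPKM in pre-pro-B and 0.377 to 1.52 FPKM in pro-B cells. The pro-B markers Pax5, Cd79a, Igll1 and Vpreb1 had 0.200 to 1.17 and 135 to 798 FPKM in the same order. Ebf1 had 64.0 FPKM in the Ebf1 -/- library against 273, and Rag2 had 22.9 FPKM in the Rag2 -/- library against 34.5. Neither targeted gene was at 0, and an FPKM over the whole transcript does not show which part of the gene the reads came from. All 6 stromal markers were higher in the pro-B library, by 2-fold or more, but at low levels, 0.207 to 1.16 FPKM in pre-pro-B and 0.522 to 5.16 FPKM in pro-B cells, and their part in the results below was not tested.

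Few short noncoding RNAs were detected, and the share detected was far higher among H/ACA box RNAs than among microRNA precursors. An FPKM above 0 was listed for 61 of the 720 members in pre-pro-B cells (8.47%, exact binomial 95% interval 6.54 to 10.75, which covers counting error only) and for 52 in pro-B cells (7.22%, interval 5.44 to 9.36). Of these, 39 were above 0 in both libraries, 22 only in pre-pro-B and 13 only in pro-B cells, so that 74 members (10.3%) were seen in a library and 646 in neither. Among all other transcripts of the table, 62.9% were above 0 in pre-pro-B and 59.2% in pro-B cells. The noncoding transcripts of 200 bases or more were above 0 in 45.7% and 41.3%.

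The classes stood far apart. Of the 34 Snora, 24 were above 0 in pre-pro-B and 22 in pro-B cells, 25 (73.5%, interval 55.6 to 87.1) in at least one of them. For the 67 Snord the numbers were 14 and 11, with 17 (25.4%, interval 15.5 to 37.5) in at least one. Of the 571 Mir, 16 and 13 were above 0, and 23 (4.03%, interval 2.57 to 5.98) in at least one. Both Rnu were above 0 in both libraries, while 1 Scarna was above 0 in pre-pro-B and 2 others in pro-B cells. The intervals of the 3 large classes did not overlap one another in either library.

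**Figure D1:**
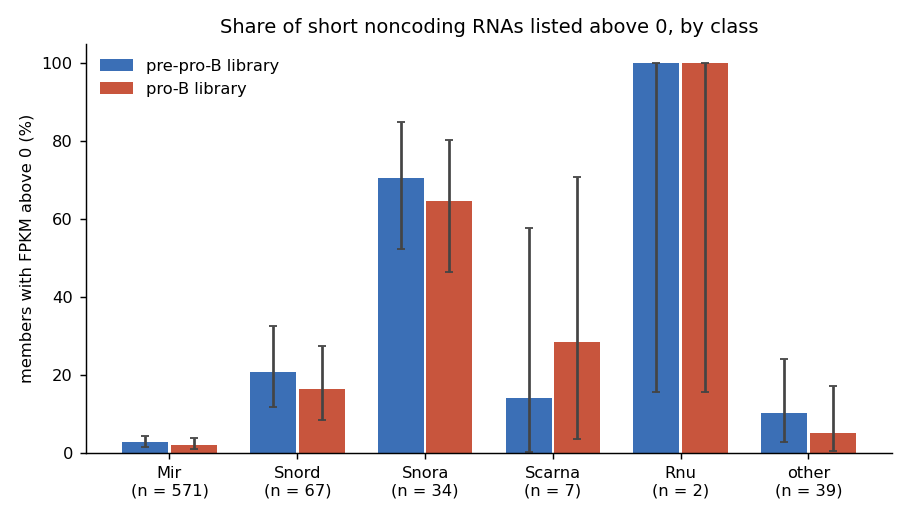
Percentage of members with an FPKM above 0 in each class (x axis, with the number of members), in the pre-pro-B (blue) and the pro-B library (red). Lines are exact binomial 95% intervals, which cover counting error only. Snora reached 70.6% and 64.7%, Mir 2.80% and 2.28%.

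Length went along with both class and detection. Lengths here are those listed for the quantified transcript, and for some members the annotated gene is far longer (325 against 71 bases for Scarna10). Below the read length of 97 bases lay 446 of the 571 Mir and 61 of the 67 Snord, but 4 of the 34 Snora, and an untrimmed read cannot lie wholly within so short a transcript. Of the 536 members below 97 bases 32 (5.97%) were above 0 in a library, and of the 184 members of 97 bases or more 42 (22.8%). The share was 8.06% below 70 bases, 5.34% at 70 to 96, 17.7% from 97 to below 130 and 53.8% from 130 to below 200 bases. Among the other transcripts it was 23.1% from 200 to below 300 bases, 39.2% from 300 to below 500, 34.9% from 500 to below 1000 and 74.6% at 1000 bases or more.

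The class difference remained visible among members of like length. From 97 to below 130 bases, 16 of 21 Snora (76.2%, interval 52.8 to 91.8) were above 0 in a library and 7 of 123 Mir (5.69%, interval 2.32 to 11.4). Of all members of 97 bases or more, 25 of 30 Snora (83.3%, interval 65.3 to 94.4) were above 0 in a library and 8 of 125 Mir (6.40%, interval 2.80 to 12.2). Within the Mir, the share was 3.36% (15 of 446) below 97 bases, with an interval of 1.89 to 5.49 that overlapped that of the longer Mir. All 9 Snora with a listed length of 130 bases or more were above 0 in pre-pro-B cells. All 4 Snora listed below 97 bases were at 0 in both libraries.

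**Figure D2:**
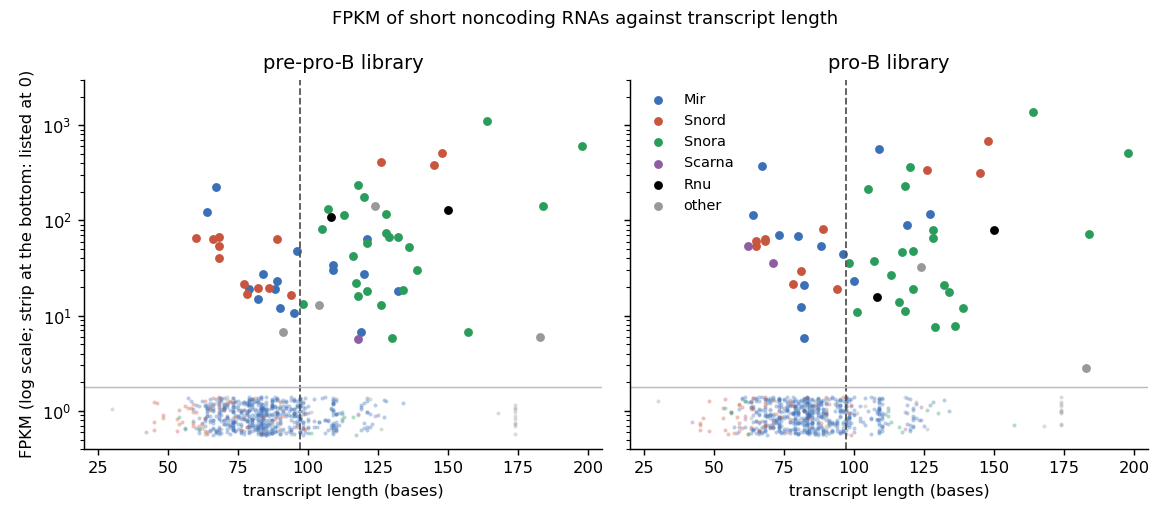
FPKM (y axis, log scale) against transcript length in bases (x axis) for all members in the pre-pro-B (left) and the pro-B library (right), coloured by class. The dashed line marks the read length of 97 bases, and the strip below the grey line holds members listed at 0, spread at random in height. Snora at the right are mostly above 0 and Mir at the left mostly in the strip, with no member between 0 and 2.80 FPKM.

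The values above 0 were high, with none in the low range that longer transcripts filled. The lowest member above 0 had 5.75 FPKM in pre-pro-B (Scarna8) and 2.80 FPKM in pro-B cells (Snhg9), the medians of the members above 0 were 40.5 and 50.4 FPKM, and the highest, Snora81, had 1099 and 1376 FPKM. No member had an FPKM between 0 and 1. Among transcripts of 1000 bases or more, 33.0% and 34.5% of the values above 0 were below 1. As a plain product of FPKM, length and 90000000 reads, in units of reads, the lowest value among the 139 members of 70 to 96 bases that were alone in their locus was worth 96.9 reads in pre-pro-B and 160 reads in pro-B cells. For transcripts of 1000 bases or more that were alone in their locus it was worth 1.21 and 1.60 reads. Such products are nominal, because the deposited values hold no read counts and no effective lengths, and a value of 0 for a short RNA thus does not set the same limit as for a long one.

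The status and the interval that Cuffdiff attached to each value set how far it could be read. The status was OK for 646 members in pre-pro-B and 647 in pro-B cells. It was LOWDATA, a flag of a doubtful estimate, for 73 (10.1%) in each, against 0.914% of the other transcripts. Of the LOWDATA members 22 lay in the Sfmbt2 locus, and 2 and 3 of them were above 0. Mir3473d was the member with a failed estimate, in pre-pro-B cells. An OK status went along with a value of 0 for 587 members in pre-pro-B and 598 in pro-B cells.

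Almost no interval excluded 0. The lower limit was above 0 for 2 of the 61 members above 0 in pre-pro-B cells, Snora74a (608 FPKM, interval 2.02 to 1573) and Rnu12 (128 FPKM, interval 0.263 to 70.9), and for 1 of 52 in pro-B cells, Snora74a (509 FPKM, interval 2.07 to 1268). Among the other transcripts above 0, the lower limit was above 0 for 47.2% and 46.7%. The upper limit was below the FPKM it belonged to for 16 of 61 members (26.2%) and 13 of 52 (25%), against 3.63% and 4.14% of the other transcripts. It was 0 for Mir16-2, Snord35b, Snord82 and Snord96a in pre-pro-B and for Mir5113 and Scarna10 in pro-B cells. Such an interval, that of Rnu12 above included, does not contain its own estimate.

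Members alone in their locus were the ones most affected. Of the 232 members with a locus of their own, 11 were above 0 in pre-pro-B and 9 in pro-B cells, and the upper limit lay below the FPKM for 10 and 8 of these. Mir142, a microRNA of blood cells, had 121 FPKM with an upper limit of 20.4 in pre-pro-B and 115 FPKM with an upper limit of 15.4 in pro-B cells. Mir682 was the exception in both libraries, with 47.3 FPKM and an upper limit of 49.4 in pre-pro-B and 44.1 FPKM and an upper limit of 59.7 in pro-B cells. Among members that shared their locus with another transcript, the same ratio of upper limit to FPKM recurred in different loci. To 3 decimals it was 1.111 for 9 members in pre-pro-B, Mir15a and Snora41 among them, and 1.779 for 12 members in pro-B cells, Mir106b and Gm12238 among them.

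**Figure D3:**
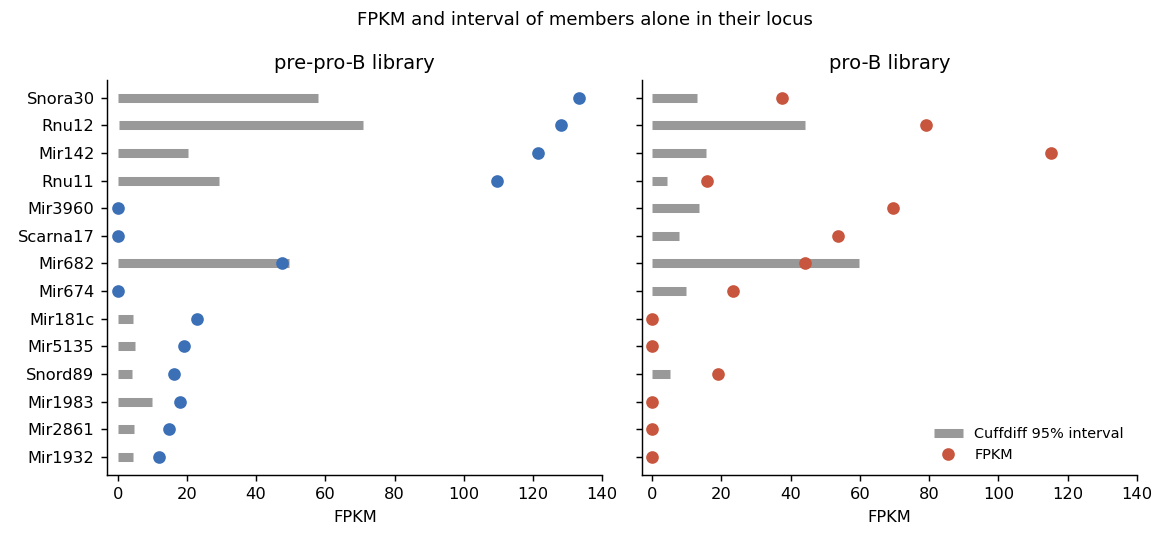
FPKM (points) and Cuffdiff 95% interval (grey bars) in the pre-pro-B (left) and the pro-B library (right) for the 14 members alone in their locus that were above 0 in a library. Apart from Mir682, every point above 0 lies to the right of its bar.

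The position of a member against longer genes could be found for 662 of the 720, from a locus of its own (232), from the RefSeq hairpin inside a shared locus (251) or from a GENCODE gene of its name there (179). Within longer genes on the same strand lay 126 members in an exon and 295 in an intron, and 23 (18.3%, interval 11.9 to 26.1) and 31 (10.5%, interval 7.25 to 14.6) of these were above 0 in a library. Of the 40 members with a longer gene on the opposite strand only, 1 was above 0 (Mir703), and of the 187 outside longer genes 8 were (4.28%, interval 1.86 to 8.26). Reads of a host transcript that cross a short RNA cannot be told from reads of that RNA by position. Of the Mir within an exon 8 of 99 were above 0 and of the Mir within an intron 8 of 242, while of the Snora 7 of 9 and 14 of 19 were.

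Detection also went along with the level of the most abundant longer transcript that shared the locus, here called the longer partner, which was the host gene for most small nucleolar RNAs. Of the members whose longer partner had a mean FPKM below 1, 2 of 126 (1.59%) were above 0 in a library. The share was 7.14% (11 of 154) for a partner of 1 to 10 FPKM, 16.8% (27 of 161) for 10 to 100 FPKM and 43.9% (18 of 41) for 100 FPKM or more. For the Snord it was 0 of 2, 0 of 9, 6 of 31 and 10 of 20 in the same order, and for the Mir 1 of 115, 4 of 137, 7 of 103 and 2 of 13. The Snora did not follow the order, with 1 of 1, 5 of 6, 11 of 17 and 6 of 8. The partner was chosen without regard to strand. Some Mir with a partner lay within a longer gene on the opposite strand only, such as Mir302a in the locus of Larp7. Members within one locus also share their partner, so these shares are a description.

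**Figure D4:**
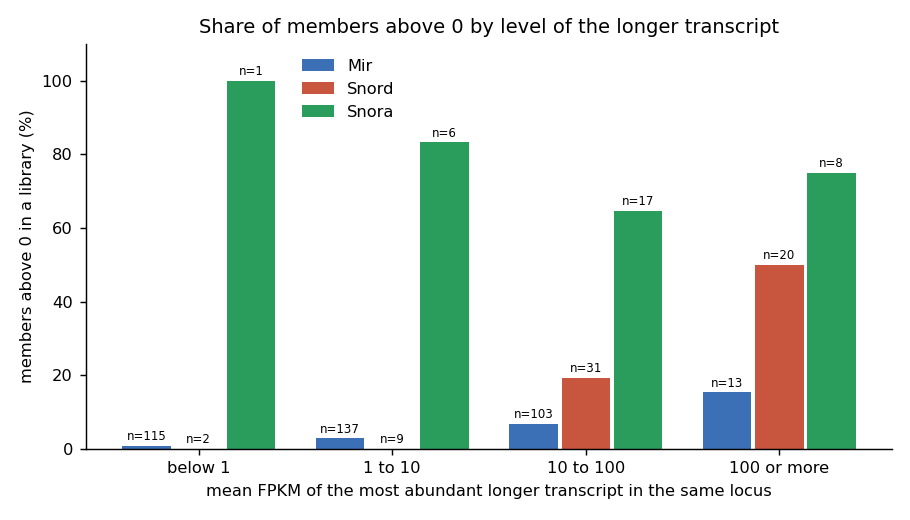
Percentage of members above 0 in a library (y axis) by the mean FPKM over both libraries of the most abundant longer transcript in the same locus, on either strand (x axis), for Mir, Snord and Snora, with the number of members over each bar. Snord reached 50.0% and Mir 15.4% at 100 FPKM or more, and Snora had 64.7% or more in every bin.

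The FPKM of a member stood above that of its partner in some loci and below it in others. These values do not show which of the transcripts the reads came from, and this was not tested. Where both were above 0, the member had the higher FPKM in 22 of 47 cases in pre-pro-B and in 22 of 42 in pro-B cells. Snora65 had 235 and 228 FPKM while Rpl12, a ribosomal protein gene of the large subunit, had 0.831 and 0.196 FPKM. Snora33 had 82.2 and 216 FPKM beside Rps12 with 1.45 and 1.47 FPKM. The opposite held for Snora7a, with 67.4 and 7.61 FPKM beside Rpl32 with 1156 and 874 FPKM.

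The member with the highest level was an H/ACA box RNA. Snora81 (chromosome 16, within Eif4a2, which encodes a translation initiation helicase with 129.3 and 90.4 FPKM) had 1099 FPKM in pre-pro-B and 1376 FPKM in pro-B cells. Snora74a (608 and 509 FPKM) lies within Snhg4, a small nucleolar RNA host gene, which had 34.96 and 16.4 FPKM. Snora3 (176 and 368 FPKM, with Rpl27a at 47.8 and 16.6 FPKM), Snora65 and Snora33 followed. The order of these 5 Snora by mean FPKM was Snora81, Snora74a, Snora3, Snora65 and Snora33, and every interval of theirs overlapped those of its neighbours.

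The C/D box RNAs above 0 in both libraries were alike in them. Snord15a had 513 and 688 FPKM and Snord15b 383 and 314 FPKM, both within Rps3, a ribosomal protein gene of the small subunit with 869 and 636 FPKM. Snord22 had 406 and 340 FPKM, within Snhg1 with 127 and 104 FPKM. Snord35a had 64.0 and 80.8 FPKM and Snord2 53.8 and 63.8 FPKM. All 8 Snord above 0 in both libraries had values within 2-fold between the libraries. Over the whole table, this held for 9039 of the 16057 transcripts above 0 in both. A further 6 Snord were above 0 in pre-pro-B cells alone and 3 in pro-B cells alone, and the count does not cover them.

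The Rpl13a locus held 4 Snord of the series Snord32a to Snord35a, printed above, and each was above 0 in a library, but not in the same ones. Snord32a had 0 FPKM in pre-pro-B and 29.7 FPKM in pro-B cells. Snord33 had 19.3 FPKM and 0, and Snord34 had 63.8 FPKM and 0, in the same order. Snord35a was above 0 in both. Rpl13a itself, whose introns and exons contain them, had 408 and 264 FPKM.

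A pair of microRNA precursors showed the same side by side. Mir2861 (chr2:32568327-32568408, minus strand) had 14.8 FPKM in the pre-pro-B library and 0 in the other. Its neighbour Mir3960 (chr2:32568420-32568492, minus strand) had 0 and 69.6 FPKM. Both were alone in their loci, lay within an exon of a longer gene on the same strand and had upper limits below their FPKM (4.82 for Mir2861 and 13.5 for Mir3960). Values above 0 in one library and of 0 in the other were thus found for adjacent RNAs in both directions.

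Among the microRNA precursors, Mir3064 had the highest mean level, 225 and 374 FPKM, and lies within an exon of Ddx5, an RNA helicase that works with Drosha, which had 469 and 355 FPKM. Mir142 (chr11:87570366-87570429, plus strand, within an intron of a longer gene) was next among those alike in the libraries, with 121 and 115 FPKM. Of the 22 microRNAs listed for lymphoid cells, 4 were above 0 in pre-pro-B (Mir142, Mir181c with 23.0, Mir15a with 27.5 and Mir16-2 with 10.7 FPKM) and 1, Mir142, in pro-B cells. Mir150, Mir155, Mir34a and every member of the Mir17 cluster were at 0 in both, Mir92-1 with the status LOWDATA. Mir17hg, the primary transcript of that cluster, had 78.6 and 54.5 FPKM. Of the 21 listed for myeloid and progenitor cells 20 were members, among them Mir21a, Mir144 and Mir451a, and all were at 0 in both libraries. The status of Mir21a was LOWDATA in both.

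Families that share a seed were split. Mir15a and Mir16-2 carry the seed AGCAGCA of the strands printed above, which Mir15b, Mir16-1, Mir195a and Mir497 share, and these 4 were at 0 in both libraries. Mir106b (0 and 20.8 FPKM, within Mcm7, which had 50.7 and 106 FPKM) shares its seed with Mir17, Mir20a and Mir93, which were at 0, although Mir93 lies in the same host gene. Mir181c was the 1 member above 0 of the 6 with the seed ACAUUCA. The quantified unit was the precursor of 82 to 95 bases in these cases and not the mature strand.

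The largest cluster of members had few of them above 0. The Sfmbt2 locus (chr2:10292078-10516880) held 72 Mir rows with 34 accessions, beside Sfmbt2, a Polycomb group gene with 3.27 and 9.18 FPKM. Of these 3 were above 0, Mir297b with 30.1 and 564 FPKM, Mir669i with 0 and 116 FPKM and Mir669j with 64.3 FPKM and 0. The central 32 bases of Mir297b occurred 6 times in the genome and those of Mir669i and Mir669j once. In 3 loci of the imprinted cluster of chromosome 12 every member was at 0, with 10 members in the Rian, 10 in the Mirg and 7 in the Rtl1 locus, and their longer partners had at most 0.243 FPKM. None of the 13 accessions with several rows was above 0 in any of them.

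The question of which short RNAs differ between the progenitor stages could be put to the 39 members above 0 in both libraries. The pro-B value was 2-fold higher or more for 7 (17.9%), 2-fold lower or more for 10 (25.6%) and within 2-fold for 22, and the median log2 ratio, pro-B over pre-pro-B, was −0.10. Over all 16057 transcripts above 0 in both, 19.4% were at least 2-fold higher and 24.3% at least 2-fold lower, with a median of −0.11, so the members' shares lay near those of the whole table. In this total RNA, fewer cells of a kind and less RNA per cell cannot be told apart. By class, 4 of 21 Snora were higher and 7 lower, 3 of 6 Mir higher and none lower, and 1 of 2 Rnu lower.

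The intervals could not separate the libraries for these RNAs. Of 70 members with status OK in both libraries and above 0 in one, none had an interval in the pro-B library wholly above or wholly below that in the pre-pro-B library. Lower limits above 0 were given for Snora74a and Rnu12 alone, and intervals that both start at 0 always overlap, so this count was fixed for the other members. Over the 20314 transcripts of the table with the same status, the interval was wholly above for 0.916% and wholly below for 1.95%, and no comparison of the members with these shares is drawn. The Cuffdiff interval is a model interval for 1 library and not a spread over replicates.

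The members furthest apart that were higher in pro-B cells were Mir297b (log2 ratio 4.23), Mir1931, Mir3101, Snora68 and Snora33. Mir1931 (within an intron of Cdk17, a kinase gene with 48.2 and 37.0 FPKM) had 6.66 and 89.1 FPKM, a log2 ratio of 3.74, with intervals of 0 to 11.1 and 0 to 478. Mir3101, in an exon of Rab4b, had 19.0 and 53.5 FPKM, a log2 ratio of 1.49. Snora68 had 13.4 and 35.8 FPKM (log2 ratio 1.42). For Snora33 the log2 ratio was 1.39.

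Those lower in pro-B cells were led by small nucleolar and nuclear RNAs. Snora7a had a log2 ratio of −3.15. Rnu11 had 110 FPKM in pre-pro-B and 15.7 FPKM in pro-B cells (log2 ratio −2.80), while Rnu12 of the same spliceosome had 128 and 79.0 FPKM, a log2 ratio of −0.70. The upper limits of Rnu11 (29.3 and 4.39) and Rnu12 (70.9 and 44.3) lay below their FPKM, and the central 32 bases of each occurred 2 times in the genome. Snora16a, within Snhg12 with 29.9 and 18.9 FPKM, had 52.0 and 7.77 FPKM (log2 ratio −2.74). Gm12238, a short noncoding RNA in the locus of G3bp1 (77.6 and 58.6 FPKM), had 141 and 32.5 FPKM (log2 ratio −2.12). Snora41, within the elongation factor gene Eef1b2 with 706 and 697 FPKM, had 113 and 26.6 FPKM (log2 ratio −2.09). Its central 32 bases occurred 2 times in the genome.

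**Figure D5:**
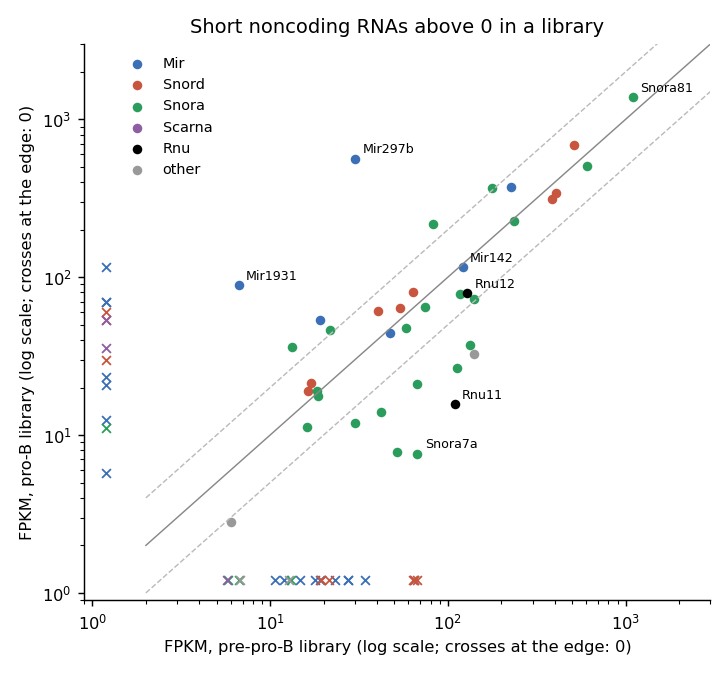
FPKM in the pro-B (y axis) against the pre-pro-B library (x axis), both on log scales, for the 74 members above 0 in a library, coloured by class. The solid line marks equal values and the dashed lines 2-fold, and crosses at the edges are members listed at 0 in one library. Mir297b and Mir1931 lie furthest above and Snora7a and Rnu11 furthest below, with 22 of the 39 points between the dashed lines.

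For the 35 members at 0 in one library no fold was formed. The highest of them in pro-B cells were Mir669i (116 FPKM), Mir3960 (69.6 FPKM), Mir1892 (69.4 FPKM, status LOWDATA), Snord85 (60.1 FPKM), Scarna17 (53.7 FPKM) and Snord47 (53.7 FPKM). In pre-pro-B cells they were Snord53 (66.9 FPKM), Snord91a (64.7 FPKM), Mir669j (64.3 FPKM) and Snord34 (63.8 FPKM). Where these 10 had a longer partner, it was above 0 in both libraries, as for Snord53 (Wdr43, 51.2 and 33.3 FPKM) and Snord91a (Tsr1, 23.6 and 14.0 FPKM). In 2 loci the partner was itself far lower in pro-B cells. Mir763 had 27.4 FPKM and 0 beside Hmga2, a chromatin protein gene of fetal and stem cells, with 44.0 and 0.328 FPKM. Mir15a, for which no position or strand was found, had 27.5 FPKM and 0 in a locus of 7 transcripts. Its longer partner there, a single Trim13 transcript chosen without regard to strand, had 83.0 and 0.00368 FPKM. That transcript need not be the host of Mir15a. These last loci were named after their values were seen.

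Of the other Scarna, Scarna10 had 0 and 35.8 FPKM and Scarna8 5.75 FPKM and 0. In the group with other names, Snhg9 (6.03 and 2.80 FPKM) followed Gm12238, and 2 transcripts without a symbol, NR_035461 and NR_039541, had 12.9 and 6.75 FPKM in the pre-pro-B library alone.

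The genes that make and bind these RNAs were above 0 throughout. Of 9 microRNA processing and effector genes, 8 lay within 2-fold between the libraries, among them Drosha (8.76 and 7.97 FPKM), Dgcr8 (17.5 and 25.4 FPKM) and Dicer1 (21.2 and 18.9 FPKM), and Ago4 was higher in pro-B cells (0.240 and 1.59 FPKM). All 8 genes of small nucleolar ribonucleoproteins lay within 2-fold. Fbl, the methyltransferase of C/D box particles, had 2.86 and 3.69 FPKM, and Dkc1, the pseudouridine synthase of H/ACA box particles, had 45.7 and 34.1 FPKM. Of 18 host genes listed 17 were found, 16 of them within 2-fold, and Hspa8 was lower in pro-B cells (102 and 27.1 FPKM). For scale, 9039 of the 16057 transcripts of the whole table above 0 in both libraries lay within 2-fold.

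Sequence features were then set side by side for members above 0 and at 0. The central 32 bases occurred once in the genome for 562 of the 662 members with a position, and 55 of these (9.79%) were above 0 in a library, against 8 of 100 (8%) with several copies. The median GC content was 49.4% for members above 0 and 47.9% for those at 0. Among the Snord with a sequence, TGATGA within the first 15 bases was found in 5 of 15 above 0 and 19 of 36 at 0, and CTGA within the last 15 bases in 14 and 33. The ACA before the last 3 bases was found in 16 of 20 Snora above 0 and 6 of 7 at 0. Read on the RNA's strand in the same way, the 536 Mir with a sequence held these letters in 0.187%, 6.53% and 3.54%. A match or its absence is a description of these windows, which depend on where the annotation ends each RNA.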

How the data were processed

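Total RNA-seq was compared between 1 library of Ebf1 -/- pre-pro-B cells and 1 of Rag2 -/- pro-B cells. The authors trimmed the reads, aligned them to mm9 with TopHat (version 1.5 in the submitters' processing notes), allowing several alignments per read, and estimated each RefSeq transcript with Cuffdiff 2.1.1. The deposited FPKM, with a status and a 95% confidence interval, were used as given, with no further scaling between libraries in the main results. The deposited columns used here were FPKM, its lower and upper limits, status, length and locus. A further table holds the FPKM again (2 per-sample columns, not used) and the authors' own fold changes, p-values and q-values, which were not used. Depth is known as about 90000000 reads per library from the labels, and read counts per transcript are not given, so depth per value is unknown.

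Members and lists were chosen with earlier results of these data known. Detection was an FPKM above 0. Ratios were pro-B over pre-pro-B with no pseudocount, counted at 2-fold. No test was made, as there is 1 library per cell type. Binomial intervals are exact (Clopper-Pearson). Gene symbols came from RefSeq tables of GRCm38.p6, and older symbols were matched through their synonyms. Coordinates are those of mm9, and NCBIM37 with GENCODE vM1 gave positions, strand, context and sequence. Of 182 hairpins whose transcript fills its locus, 181 matched NCBIM37 there exactly. Genomic copies were exact matches of the central 32 bases on either strand. Of 797 noncoding transcripts below 200 bases, the 76 on chromosome X and 1 on an unplaced contig of chromosome 8 were outside the rule.

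Members named were the 5 with the highest mean FPKM of each class, the 5 furthest apart each way among those of at least 1 FPKM in both libraries, the 10 highest that were at 0 in one library, list members above 0, and the limit of the rule. Others were named after their values were seen. Values of some genes that are no members are not reported here. Alternatives were other detection limits (FPKM of at least 1, lower limit above 0, status OK), pseudocounts of 1 and 0.1, TPM and median-ratio scaling, one value per accession, a limit of 150 bases, and leaving out members inside longer genes or with several copies. The counting steps were tested on simulated data. Tools were pandas 2.3.3 and numpy 2.4.6 under Python 3.11.15, with scipy 1.17.1 for intervals and matplotlib 3.10.9 for plots.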

Additional observations from a re-analysis of the deposited data

Results flagged for a closer look

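A signal was seen outside the autosomal members. Of the 77 short noncoding transcripts on chromosome X or an unplaced contig, 3 were above 0 in a library, all on chromosome X. Each was above the level worth 3 nominal reads (0.258 to 0.309 FPKM). No autosomal member above 0 had less than 2.80 FPKM, so passing that level lends no weight. Mir98, of the let-7 family, had 175 FPKM in the pre-pro-B library (Cuffdiff interval 0 to 246) and 524 FPKM in the pro-B library (interval 0 to 1009). The H/ACA box RNA Snora69 had 9.66 FPKM (interval 0 to 10.7) and 12.5 FPKM (interval 0 to 22.2). For Snora70 the pre-pro-B value was 40.7 FPKM (interval 0 to 233), and the pro-B value was listed at 0. The 2 libraries come from donors of different sex, whose part in these values was not tested.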

How the results depend on the processing

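With the lower limit of the interval above 0 as the condition, the share of members detected dropped to 0.278% in pre-pro-B and 0.139% in pro-B cells. Without members inside a longer gene on the same strand it was 6.02% and 3.34% of those that stayed, among which 1 of 8 members above 0 in both libraries was at least 2-fold higher and 3 lower in pro-B cells. A condition of FPKM of at least 1, status OK, one value per accession, a limit of 150 bases or a single genomic copy kept the share between 7.82% and 9.20% in pre-pro-B and between 6.69% and 7.84% in pro-B cells. The members at least 2-fold apart numbered 20 higher and 32 lower of 74 when those at 0 in one library were counted or a pseudocount of 0.1 was added, and 20 higher and 31 lower with a pseudocount of 1. TPM scaling (a log2 shift of −0.09 in the ratio) gave 5 higher and 11 lower, and median-ratio scaling (a shift of 0.07) gave 7 and 10. In all, 66 of 78 alternatives stayed within the interval or within 1.5 times of the count, or, for single members, on the same side of 0. Most of these could hardly come out otherwise, so the tally is no measure of robustness. No member lay between 0 and 1 FPKM, so a limit of 1 FPKM changed nothing. The 30 alternatives for single members were small scaling shifts or a pseudocount of 1, set against log2 ratios of at least 1.39 in size, so no reversal could be seen there. No paired analysis was possible because there is 1 library per cell type, and for the same reason no replicate could be left out. The cause of the changes beyond the stricter conditions themselves was not tested. The missing replicates, the depletion of RNAs under 200 nt and the unknown read counts limit every value.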
